A study of Mus musculus with 16 samples.

Results

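The 6 genes of the platelet-derived growth factor (PDGF) system described here were the ligands Pdgfa, Pdgfb, Pdgfc and Pdgfd and the receptors Pdgfra and Pdgfrb. They were taken by symbol from a table of read counts for 23999 mouse gene symbols in 16 RNA-seq libraries, and all 6 were found. The libraries came from myeloid sarcomas, solid tumours of leukaemic myeloid cells outside the marrow, and from whole bone marrow. Every animal carried NPM1cA, a form of nucleophosmin found in acute myeloid leukaemia, including the animals that served for comparison. The NPM1cA/SMC3+/- animals, which carry 1 intact copy of the cohesin gene SMC3, gave 6 sarcoma libraries from 4 mice (948, 1267, 1268_1270 and 2721) and 9 marrow libraries from 9 mice. Mice 948 and 2721 gave 2 tumours each, whose counts were summed, and mice 1267 and 2721 gave both tissues. A further sarcoma, of mouse 841, was labelled NPM1cA with no SMC3 change and was the only sample of its genotype. The labels give neither ages nor the promoter or Cre line behind either allele. Tumours went whole into the lysis reagent, whereas marrow was first crushed, filtered and cleared of red cells, so tissue and handling cannot be told apart.

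PDGF ligands are secreted dimers that bind a pair of class III receptor tyrosine kinases on neighbouring cells. PDGF-A and PDGF-C act mainly through the alpha receptor (Pdgfra), PDGF-B through both receptors and PDGF-D mainly through the beta receptor (Pdgfrb). Pdgfra is known as a marker of fibroblasts and other mesenchymal cells, Pdgfrb of pericytes, vascular smooth muscle and fibroblasts, while ligands come from endothelium, platelets, macrophages, epithelium and tumour cells.

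Library totals ran from 12072482 to 33605464 counts in SMC3+/- sarcomas and from 12395041 to 39197660 in marrow, and mouse 841 had 9797201. Levels are given as CPM, counts relative to library totals scaled by the trimmed mean of M-values (TMM). Several samples stood apart. In the sarcoma of mouse 1268_1270 the summed level of 12 pan-leukocyte markers was 697.8 CPM, against 7603 to 14650 CPM in marrow, and its adipocyte markers summed to 41150 CPM against at most 21.0 CPM in any marrow. Myeloid markers summed to 1042 CPM in that sarcoma and to between 18930 and 135000 CPM in the marrows, so it held the lowest level of these markers among all samples. Transcripts over 6 kb were low in marrows 737, 779 and 782, with median log2 deviations of -1.97, -1.95 and -1.78, and lower than in most libraries in marrow 1267 (-0.60) and tumour 1 of mouse 948 (-0.52). The calls of the PDGF genes and of the named pathway genes are also given without these samples. One set leaves out the 4 libraries marrow 737, 779 and 782 and tumour 1 of mouse 948. Another, added after seeing the data, leaves out marrow 1267 as well, 5 libraries in all. In bulk tissue, fewer cells of a type and less RNA per cell cannot be told apart.

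Of the 6 genes, Pdgfa, Pdgfc and Pdgfra were higher in SMC3+/- sarcomas than in SMC3+/- marrow. Pdgfb and Pdgfrb had higher mean levels in the sarcomas but overlapped with marrow and were not called. Pdgfd was too low for the filter of the test. A call required an adjusted p under 0.05 in edgeR's quasi-likelihood test with Benjamini-Hochberg adjustment over 14730 genes, of which 4.49% were called higher and 0.0543% lower, or 4.55% in either direction. A gene near 0 in marrow passes the filter only through the sarcomas, so the 3 calls among the 5 genes tested are a description and not a measure of the family.

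Pdgfa encodes the A chain, the classical ligand of the alpha receptor. Its level was 0.953 CPM in sarcoma 948, 5.79 CPM in sarcoma 1267, 17.5 CPM in sarcoma 1268_1270 and 3.89 CPM in sarcoma 2721. In the 9 marrows the lowest and the median values were 0 CPM and the highest, in mouse 949, was 0.502 CPM, with 22 counts in all from 3 marrows. Every SMC3+/- sarcoma was above every marrow, and sarcoma 948 was closest to them. The mean was 7.03 ± 7.24 CPM (SD, n = 4) in sarcoma and 0.0895 ± 0.173 CPM (SD, n = 9) in marrow, and edgeR gave a log2 fold change of 6.15 ± 1.37 (SE) with an adjusted p of 0.0172. Without sarcoma 1268_1270 the log2 fold change was 5.05 and the edgeR adjusted p 0.170. Without the 4 libraries it was 5.62 with an edgeR adjusted p of 0.0702, without the 5 it was 5.39 with 0.103, and without marrow 949 it was 7.18.

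Pdgfc encodes a ligand that is secreted in a latent form and is cut to become active at the alpha receptor. The sarcomas held 5.65 CPM (948), 4.52 CPM (1267), 43.0 CPM (1268_1270) and 5.96 CPM (2721). The marrow values ran from 0 CPM, which was also the median, to 0.641 CPM in mouse 737, with 21 counts from 3 marrows. Sarcoma and marrow did not overlap, and 3 of the 4 sarcomas lay close together with 1268_1270 far above them. The means were 14.8 ± 18.8 CPM (SD, n = 4) and 0.115 ± 0.221 CPM (SD, n = 9), and the edgeR log2 fold change was 7.01 ± 1.36 (SE) with an adjusted p of 0.00793. It was 5.42 without sarcoma 1268_1270, with an edgeR adjusted p of 0.116, and 7.96 without marrow 737. Without the 5 libraries low in long transcripts it was 7.37 and remained called, with an edgeR adjusted p of 0.0454.

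Pdgfb encodes the B chain, which binds both receptors and in vessels recruits pericytes. Its level was 1.45 CPM in sarcoma 948, 5.59 CPM in 1267, 23.2 CPM in 1268_1270 and 2.78 CPM in 2721. Marrow ranged from 0 to 2.86 CPM with a median of 0.476 CPM, and 145 counts came from 7 of the 9 marrows. It was the ligand found in the most marrows, and marrows 737 and 949 reached the level of the lower sarcomas. The means were 8.25 ± 10.1 CPM (SD, n = 4) and 0.818 ± 0.975 CPM (SD, n = 9), and the log2 fold change of 3.32 ± 1.23 (SE) was not called (edgeR adjusted p = 0.186). Without sarcoma 1268_1270 it was 1.85.

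Pdgfd encodes the latent ligand of the beta receptor and was the lowest of the 4 ligands in CPM. Sarcomas 948, 1267 and 2721 held 0.427, 0.950 and 0.328 CPM and sarcoma 1268_1270 held 12.2 CPM. In marrow it had 2 counts, both in mouse 737 (0.160 CPM), and 0 in the other 8. With the tumours of a mouse summed, the groups did not overlap. The marrow level in mouse 737 was, however, below the 3 counts (0.240 CPM) that a count of 0 allows there. Without a filter edgeR gave a log2 fold change of 7.59 ± 1.54 (SE) with an adjusted p of 0.00808, and without sarcoma 1268_1270 as well, a run added after seeing the data, it gave 4.74 ± 1.58 with an adjusted p of 0.165.

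Pdgfra, the alpha receptor, held 8.09 CPM in sarcoma 948, 9.93 CPM in 1267, 69.8 CPM in 1268_1270 and 13.5 CPM in 2721. The marrow median was 0 CPM and the highest marrow, of mouse 3332, held 0.962 CPM, with 49 counts from 3 marrows. All 4 sarcomas were above all 9 marrows, and 1268_1270 was again far above the other 3. The means were 25.3 ± 29.7 CPM (SD, n = 4) and 0.162 ± 0.328 CPM (SD, n = 9), and the edgeR log2 fold change was 7.15 ± 1.31 (SE) with an adjusted p of 0.00575. Without sarcoma 1268_1270 it was 5.80 with an edgeR adjusted p of 0.0730, and without marrow 3332 it was 8.31. Without the 5 libraries low in long transcripts it was 6.37 with an edgeR adjusted p of 0.0570 and was not called.

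Pdgfrb, the beta receptor, held 3.02 CPM in sarcoma 948, 21.8 CPM in 1267, 39.4 CPM in 1268_1270 and 21.8 CPM in 2721. In marrow it ran from 0 to 11.2 CPM with a median of 2.46 CPM, and 6 marrows held 865 counts, 54.2% of them in mouse 919. It was the member with the most marrow counts, and sarcoma 948 lay inside the marrow range. The means were 21.5 ± 14.8 CPM (SD, n = 4) and 3.24 ± 3.82 CPM (SD, n = 9), and the log2 fold change of 2.68 ± 1.24 (SE) was not called (edgeR adjusted p = 0.353). When counts were scaled to pan-leukocyte genes instead, which moved the median log2 fold change of all genes to 2.13, Pdgfb (6.87) and Pdgfrb (5.54) were called, with edgeR adjusted p-values of 0.00274 and 0.00757. Under that scaling 59.9% of all genes were called higher.

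**Figure D1:**
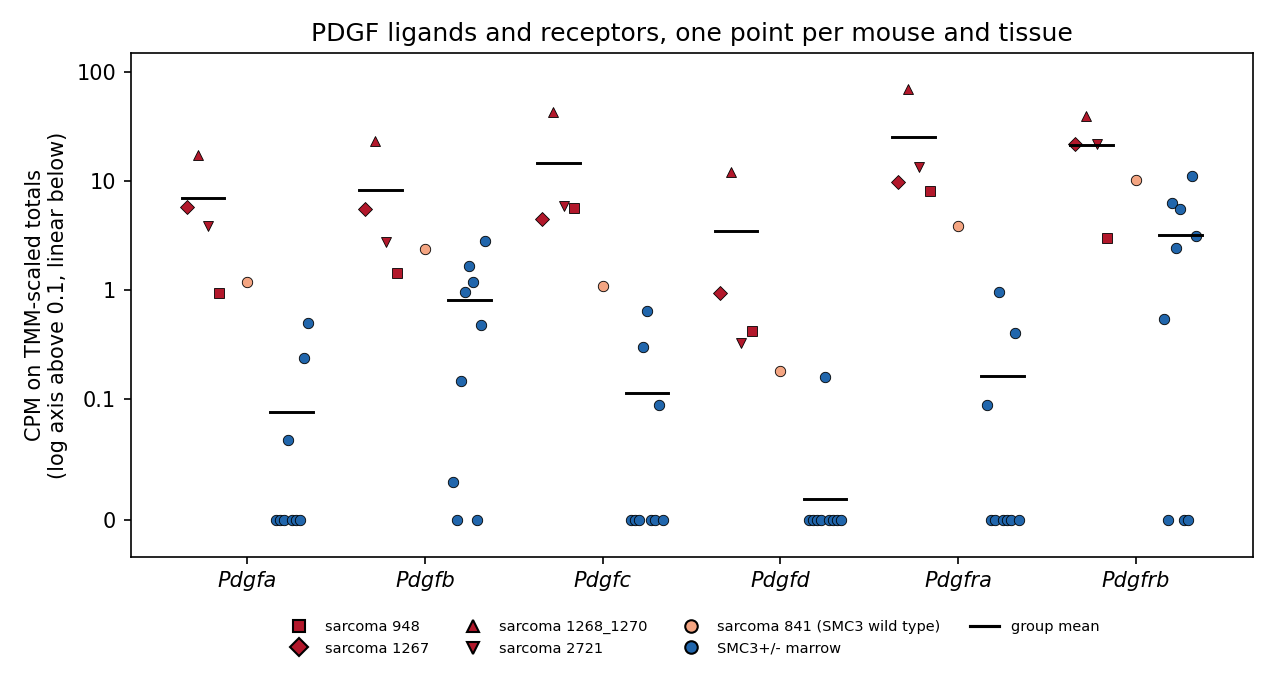
CPM of the 6 genes, with 1 point for each mouse and tissue, for SMC3+/- sarcomas, the sarcoma of mouse 841 and the marrows. The SMC3+/- sarcomas lie above all marrows for Pdgfa, Pdgfc, Pdgfd and Pdgfra and overlap with them for Pdgfb and Pdgfrb.

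The groups did not overlap for 3 of the 5 genes tested and for the untested Pdgfd. For Pdgfd this held only with tumours of 1 mouse summed. Singly, tumour 2 of mouse 948 (0 CPM) and tumour 1 of mouse 2721 (0.0863 CPM) were below marrow 737 (0.161 CPM). Over all genes tested, 4.56% had the sarcomas above and 0.129% had them below. The 3 genes passed the filter through the sarcomas. Sarcoma 1268_1270 was the highest of the 4 for all 6 genes, against 33.4% of all genes, and it held 62.2% of the summed sarcoma CPM of Pdgfa, 70.3% of Pdgfb, 72.7% of Pdgfc, 87.7% of Pdgfd, 68.9% of Pdgfra and 45.8% of Pdgfrb. Leaving out each of the other 12 samples in turn kept the calls of Pdgfa, Pdgfc and Pdgfra, with edgeR adjusted p-values of at most 0.0356, 0.0198 and 0.0122. As mice 1267 and 2721 gave both tissues, mouse was also used as a block. In that model a mouse with 1 tissue adds nothing to the tissue contrast, which rests on mice 1267 and 2721 alone. The log2 fold changes were then 9.78 for Pdgfa, 9.98 for Pdgfc and 11.14 for Pdgfra. None of the 3 was called, with edgeR adjusted p-values of 0.793, 0.351 and 0.0742. With so few paired mice, the block cannot decide whether the calls hold over all samples. An exact two-sided permutation test of the difference in mean log2 CPM, run for each gene alone over 715 splits and not adjusted, gave 0.0126 for Pdgfb and 0.0350 for Pdgfrb. For the other 4 genes its p is fixed at the smallest possible value by the lack of overlap. The splits, like the main edgeR test behind the calls, treat both tissues of mice 1267 and 2721 as independent samples.

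**Figure D2:**
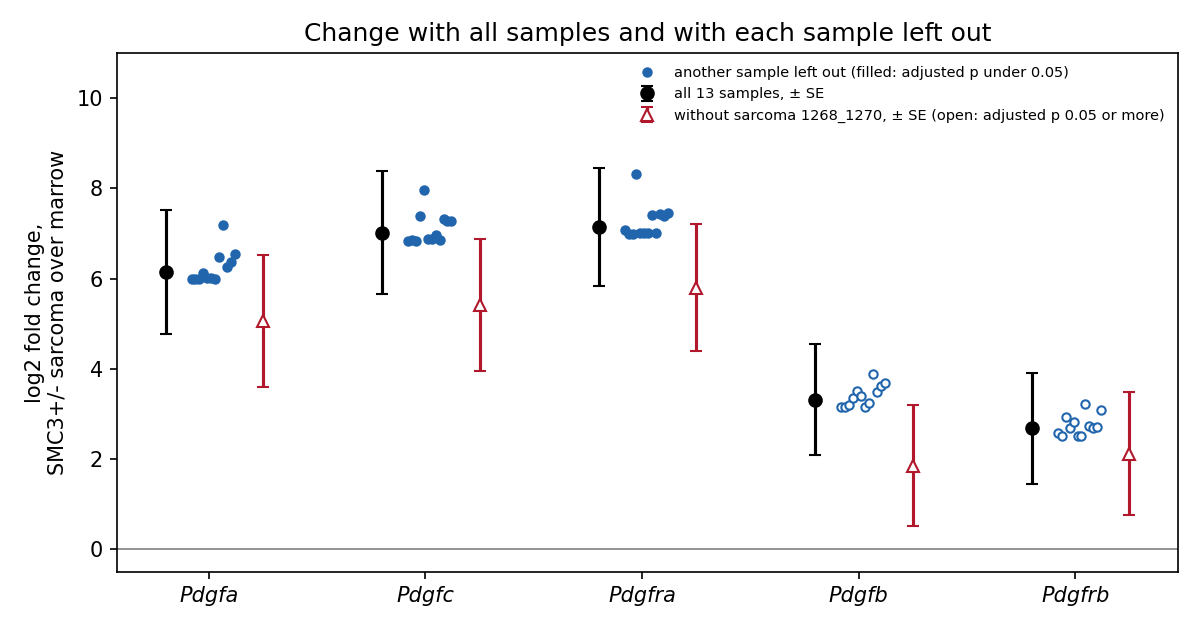
Log2 fold change of SMC3+/- sarcoma over marrow for the 5 genes tested, with all samples and with each sample left out in turn, filled where the edgeR adjusted p was under 0.05. Leaving out sarcoma 1268_1270 gives the lowest value for each gene and the only run without a call for Pdgfa, Pdgfc and Pdgfra.

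Within the mice that gave both tissues, the same order was seen. In mouse 1267 the marrow held 0 counts of all 6 genes, so folds are lower bounds against 3 counts in that marrow (0.155 CPM). They were at least 64.0-fold higher in the sarcoma for Pdgfra and at least 140-fold higher for Pdgfrb, and between 6.12-fold for Pdgfd and 37.3-fold for Pdgfa among the ligands. That marrow was among the libraries low in long transcripts. In mouse 2721 Pdgfra was at least 123-fold and Pdgfc at least 54.3-fold higher in the sarcoma, whereas Pdgfrb was 6.33 CPM in marrow and 21.8 CPM in sarcoma, a fold of 3.44. Marrow 782, like marrow 1267, held 0 counts of all 6 genes, and a count of 0 there allows up to 0.212 CPM. Such floors and the intervals below cover counting error only.

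The pairs of tumours from 1 mouse showed how far levels varied within an animal. In mouse 948 Pdgfrb was 1.35 CPM in tumour 1 and 5.41 CPM in tumour 2, a ratio of 0.250 with a 95% counting interval of 0.149 to 0.405. Pdgfra differed less, with a ratio of 0.636 (0.491 to 0.824), and Pdgfc not beyond counting error at 1.06 (0.778 to 1.46). Pdgfa was lower in tumour 1, with a ratio of 0.394 (0.164 to 0.891), and Pdgfd had 13 counts in tumour 1 and 0 in tumour 2. Tumour 1 of mouse 948 was the tumour low in long transcripts, and whether this moved its receptor levels was not tested. In mouse 2721 Pdgfa was 4.79 CPM in tumour 1 and 2.00 CPM in tumour 2, a ratio of 2.40 (1.67 to 3.49), the opposite direction to mouse 948. Pdgfd had 2 and 11 counts, a ratio of 0.169 (0.0182 to 0.773). The receptors of mouse 2721 were closer, with ratios of 0.746 (0.626 to 0.888) for Pdgfra and 0.848 (0.740 to 0.971) for Pdgfrb.

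The promoters of the 3 called genes are shown because these genes were high in the same sarcomas. They are RefSeq sequences on GRCm38.p6 that run from 250 bases before to 50 bases after the annotated start, on the strand of the gene. Both strands were searched for 4 short motifs, and matches are in capitals, with a match on the other strand shown as its reverse complement. The GC box, spelled GGGCGG, was present in 35.7% of 32851 such mouse promoters. The TATA box was searched as TATAAA and was present in 13.6%. The motif named CCAAT was present in 37.4%. An AP-1 site, spelled TGANTCA, was present in 7.81%. None of these spellings overlapped another in the windows shown. Pdgfra lies at chr5:75152001-75152300 on the plus strand, and its window held none of these letters. Pdgfa has entries for both of its annotated starts, at chr5:138994232-138994531 and chr5:138994895-138995194 on the minus strand, with 1 and 2 GC boxes. Pdgfc lies at chr3:81036166-81036465 on the plus strand, with no match.
Pdgfra: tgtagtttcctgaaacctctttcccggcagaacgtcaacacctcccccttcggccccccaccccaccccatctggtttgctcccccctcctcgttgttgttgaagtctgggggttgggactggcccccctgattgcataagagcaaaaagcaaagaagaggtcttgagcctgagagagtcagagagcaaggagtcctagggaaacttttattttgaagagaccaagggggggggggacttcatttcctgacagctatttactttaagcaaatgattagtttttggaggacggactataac
Pdgfa start 1: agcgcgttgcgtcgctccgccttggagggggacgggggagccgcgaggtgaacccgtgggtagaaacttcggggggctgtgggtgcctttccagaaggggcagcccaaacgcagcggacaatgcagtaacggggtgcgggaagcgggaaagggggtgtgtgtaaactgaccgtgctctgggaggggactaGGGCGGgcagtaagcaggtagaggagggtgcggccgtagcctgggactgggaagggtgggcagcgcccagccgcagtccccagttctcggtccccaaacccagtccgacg
Pdgfa start 2: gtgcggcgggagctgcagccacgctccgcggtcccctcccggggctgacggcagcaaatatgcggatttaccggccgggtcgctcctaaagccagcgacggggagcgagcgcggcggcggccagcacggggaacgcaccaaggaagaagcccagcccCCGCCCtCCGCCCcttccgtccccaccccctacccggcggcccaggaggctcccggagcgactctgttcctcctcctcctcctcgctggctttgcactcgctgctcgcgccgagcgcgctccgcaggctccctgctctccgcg
Pdgfc: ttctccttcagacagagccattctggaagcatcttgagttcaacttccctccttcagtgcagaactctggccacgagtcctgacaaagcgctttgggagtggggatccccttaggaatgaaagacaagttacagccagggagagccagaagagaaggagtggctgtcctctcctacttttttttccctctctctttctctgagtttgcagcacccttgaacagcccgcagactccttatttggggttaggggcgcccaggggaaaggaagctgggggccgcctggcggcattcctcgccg
The GC content was 51.0% for Pdgfra, 55.0% for Pdgfc, 67.0% and 73.3% for the Pdgfa starts, and 52.7% at the median of all promoters. The second Pdgfa start was richer in G and C than 94.5% of them. The 3 genes shared no matched motif. A match is a description of the letters and not of a bound site.

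To set ligands against receptors within a tumour, CPM were divided by the length of the longest annotated transcript, and CPM per kb is the scale of this and the next paragraph. In sarcoma 948 Pdgfc led with 1.61, followed by Pdgfra with 1.18, while Pdgfrb, Pdgfb and Pdgfa lay between 0.463 and 0.558. In sarcoma 1267 Pdgfrb led with 4.02, ahead of Pdgfa with 2.81, Pdgfb with 1.90, Pdgfra with 1.45 and Pdgfc with 1.28. In sarcoma 2721 Pdgfrb led with 4.02 as well, ahead of Pdgfra with 1.97, Pdgfa with 1.89 and Pdgfc with 1.69. Sarcoma 1268_1270 had Pdgfc at 12.2, Pdgfra at 10.2, Pdgfa at 8.48, Pdgfb at 7.88 and Pdgfrb at 7.26. Pdgfd was the lowest of the 6 in each of these 4 sarcomas, from 0.105 in 2721 to 3.89 in 1268_1270.

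The sum of both receptors was below the sum of the 4 ligands in sarcomas 948, 1267 and 1268_1270, with ratios of 0.646, 0.870 and 0.538, and above it in 2721 with a ratio of 1.29. With exon unions as lengths, the ratio of sarcoma 1267 turned, from a log2 of -0.20 to 0.18. In mouse 948 the ratio was 0.440 in tumour 1 and 0.924 in tumour 2, and 1.08 in tumour 2 with exon unions. In mouse 2721 it was 0.943 in tumour 1 and 1.92 in tumour 2. Pdgfra stood above Pdgfrb in sarcomas 948 (2.12) and 1268_1270 (1.41) and below it in 1267 (0.362) and 2721 (0.491), and with exon unions the log2 ratio of 1268_1270 moved from 0.49 to -0.045. Against its ligands Pdgfa and Pdgfc together, Pdgfra had ratios of 0.355 to 0.572. Against Pdgfb and Pdgfd, Pdgfrb ran from 0.617 in 1268_1270 to 3.83 in 2721, with tumours of 1 mouse summed. The tumours of mouse 948 taken singly had ratios of Pdgfrb to these ligands of 0.310 in tumour 1 and 2.34 in tumour 2, a wide spread between libraries of 1 animal. Tumour 1 was the tumour low in long transcripts, and whether this moved its ratio was not tested. The summed ratio of that mouse was 0.888, and 1.14 with exon unions.

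**Figure D3:**
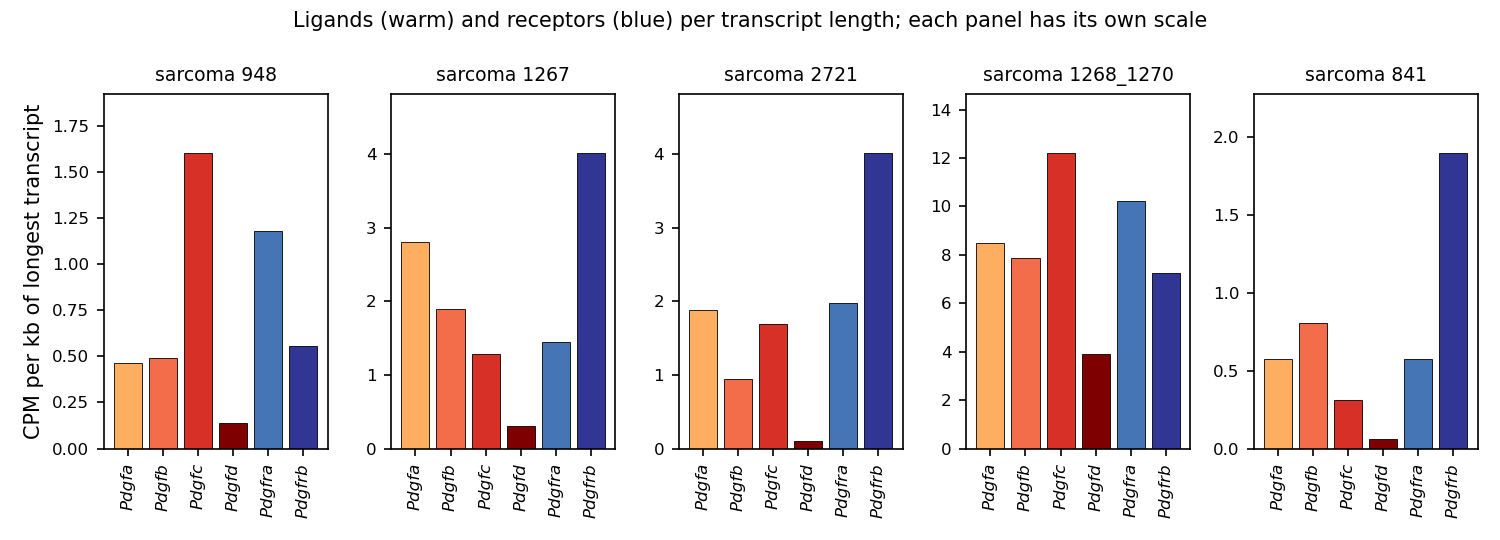
CPM per kb of longest transcript for the 4 ligands (warm colours) and both receptors (blue), 1 panel for each sarcoma with its own scale. Pdgfrb is the tallest bar in sarcomas 1267, 2721 and 841, and Pdgfc in 948 and 1268_1270.

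The sarcoma of mouse 841 tests, as far as 1 tumour can, whether the sarcoma without the SMC3 change differed. It held 1.19 CPM of Pdgfa, 2.37 CPM of Pdgfb and 10.3 CPM of Pdgfrb, all inside the range of the 4 SMC3+/- sarcomas. Pdgfc at 1.10 CPM, Pdgfd at 0.183 CPM and Pdgfra at 3.93 CPM were below that range, as were 19.3% of 17762 genes tested, while 9.30% were above. Its Pdgfd level rested on 2 counts and was below the 0.274 CPM that a count of 0 allows in that sample. Under the assumption that this tumour varies as the other 4 do, edgeR called 0 genes, 236 had an unadjusted p under 0.05, and DESeq2 called 65. The log2 difference from the SMC3+/- sarcomas was -2.56 ± 1.90 (SE) for Pdgfa, -3.75 ± 1.96 for Pdgfc and -2.69 ± 1.62 for Pdgfra. In that group sarcoma 1268_1270 held 62.2%, 72.7% and 68.9% of the summed CPM of these genes. Pdgfa in sarcoma 841 was above sarcoma 948 (0.953 CPM). The median over all genes was -0.33. Genotype rests on 1 tumour here and cannot be told apart from that tumour. Its Pdgfrb led at 1.90 CPM per kb, and its receptors stood at 1.41 times its ligands.

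Of 46 further genes of the PDGF pathway, 45 passed the filter, 3 were higher in sarcoma and 0 lower by edgeR, or 6.67% higher against 4.49% of all genes. Their median log2 fold change was 0.34, against 0.07 for all genes. Plat, the plasminogen activator that cuts PDGF-C to its active form, was at 5.16 to 40.5 CPM in the sarcomas and at 0 CPM in all marrows but that of mouse 949 (0.853 CPM). Its log2 fold change was 7.21 ± 1.55 (SE, edgeR adjusted p = 0.0144). The other activators and co-receptors were not called, with log2 fold changes of 0.48 for Furin, 1.86 for Plau, 1.80 for Nrp1, 1.19 for Lrp1 and -0.03 for St14.

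Among 26 adaptors and effectors, Grb10, an adaptor that binds activated receptors, was called, at 7.52 to 119.5 CPM in the sarcomas and 0 to 2.13 CPM in the marrows (log2 fold change 6.47 ± 1.29, edgeR adjusted p = 0.00924). Among 13 negative regulators, the receptor phosphatase gene Ptprk was called, at 0.909 to 52.2 CPM against 0 to 0.732 CPM (6.93 ± 1.52, edgeR adjusted p = 0.0163). Lrig1 (3.54), Spry1 (3.04), Spry4 (3.83) and Socs3 (-2.74) had large log2 fold changes that were not called. The sarcoma of mouse 1268_1270 was the highest for all 3 called genes. Without it, the edgeR adjusted p was 0.146 for Plat, 0.241 for Grb10 and 0.569 for Ptprk. It was 0.0702, 0.0509 and 0.0918 when the 4 libraries with few long transcripts were left out, and 0.118, 0.0867 and 0.146 when the 5 were. With mouse as a block it was 0.290 for Plat and 0.573 for Ptprk, and the Grb10 value is not given here. Over the alternative runs with an adjusted p, the call was lost in 6 for Plat, 5 for Grb10 and 6 for Ptprk. It was kept in 23, 23 and 21.

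The other class III receptors gave another pattern. Kit, the receptor of stem cell factor, had a median of 5.08 CPM per kb in sarcoma and 6.03 in marrow, Csf1r, the receptor of macrophage colony-stimulating factor, 20.7 and 32.7, and Flt3, a receptor of early blood progenitors, 0.896 and 8.06. On the same scale Pdgfra had medians of 1.71 and 0 and Pdgfrb of 4.02 and 0.453. None of Kit, Csf1r and Flt3 was called, with log2 fold changes of -0.86, -0.50 and -1.76 and edgeR adjusted p-values of 0.690, 0.876 and 0.438. Their ligands were not called either, at 4.28 for Kitl (edgeR adjusted p = 0.179), 1.90 for Csf1 (0.420), 5.41 for Il34 (0.0961) and -0.09 for Flt3l (0.991).

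**Figure D4:**
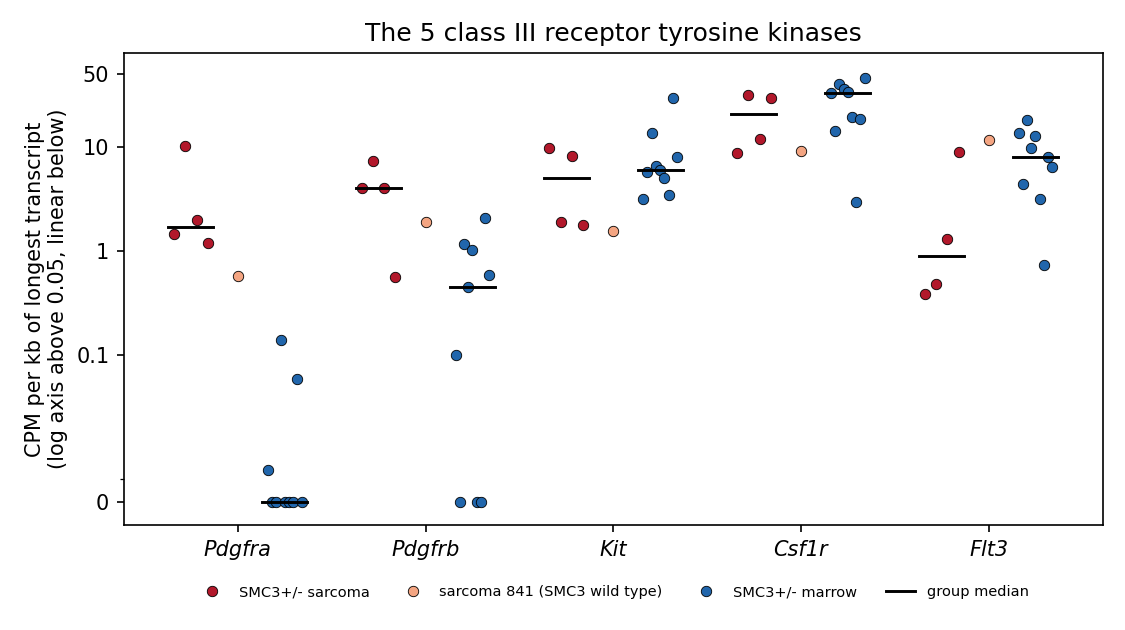
CPM per kb of longest transcript for the 5 class III receptors, 1 point for each mouse and tissue, on an axis that is logarithmic above 0.05 and linear below. Csf1r has the highest median in both tissues, and Pdgfra has a marrow median of 0.

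Markers of several cell types, among them cells known to express these receptors, were also called higher in the SMC3+/- sarcomas. Fibroblast markers summed to 1133 to 4486 CPM in the SMC3+/- sarcomas and to 5.23 to 286.9 CPM in the marrows, and 8 of 10 were called higher by edgeR, led by Lum (log2 fold change 12.33), Col3a1 (10.23) and Mfap5 (9.63). Pericyte markers summed to 51.1 to 907.4 CPM against 0.0801 to 12.5 CPM, with 5 of 8 called, led by Rgs5 (8.09). Smooth muscle markers were called in 3 of 5 tested, endothelial markers in 4 of 10 and macrophage markers in 5 of 8. Skeletal muscle markers were called in 4 of 6 and adipocyte markers in 6 of 6 tested. Osteolineage and marrow stroma markers were called in 0 of 5 tested, and keratinocyte and Schwann cell markers in 1 of 3 tested each. The osteolineage and marrow stroma markers summed to 190.9 to 453 CPM in the SMC3+/- sarcomas and to 13.3 to 152.2 CPM in the marrows. By mean log2 CPM, however, marrows 919 (1.51), 2721 (2.53) and 3332 (1.63) were above every sarcoma, the highest being 2721 (1.48). Of all genes tested, 4.49% were called higher. Markers near 0 in marrow pass the filter only through the sarcomas, so these counts are a description. Without sarcoma 1268_1270, 6 fibroblast, 3 pericyte, 1 smooth muscle, 1 endothelial, 2 macrophage, 2 skeletal muscle and 4 adipocyte markers were called. Osteolineage and marrow stroma then had 1 called, keratinocytes 1 and Schwann cells 0. In that run 1.13% of all genes were called higher. When the 5 libraries were left out instead, 8 fibroblast markers were called and 0 pericyte markers by edgeR. Smooth muscle then had 1, endothelium 2, macrophages 3, skeletal muscle 0 and adipocytes 0 called, and 1.12% of all genes were called higher. Osteolineage and marrow stroma had 0, keratinocytes 1 and Schwann cells 0. Platelets, a classical store of PDGF, were represented by 8 tested markers, of which Pf4 alone was called, and their sums overlapped at 44.7 to 115.5 CPM in sarcoma and 5.37 to 90.1 CPM in marrow. None of 12 pan-leukocyte and 11 myeloid markers was called. The order of the SMC3+/- sarcomas by summed fibroblast markers was 948, 2721, 1267 and 1268_1270. In sarcoma 841 fibroblast markers summed to 2472 CPM, above 3 of these 4, and pericyte markers to 45.6 CPM, below all 4. These ranks depend on the measure. By mean log2 CPM its fibroblast markers (5.48) were above sarcoma 948 (5.27) but below 1267 (5.92), 2721 (6.07) and 1268_1270 (7.72). By that measure its pericyte markers (2.20) were above those of 948 (2.08). Pdgfra in sarcoma 841 was below all 4. The part of these cells in the PDGF levels was not tested.

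Across the 14 samples, the genes most like Pdgfra by Pearson correlation of log2 CPM were Col6a2 (r = 0.99), Cpeb1 (0.98) and Myl9 (0.98). Pdgfrb was most like Fgfr1 (0.93), Dcbld2 (0.91) and Rasal2 (0.91). For the ligands they were Dll4, Msrb3 and Pmepa1 (0.98 each) for Pdgfa, Btbd3 (0.96), Ephx1 (0.94) and Lamb2 (0.92) for Pdgfb, Lpar1 (0.98), Ptgis (0.98) and Aldh1a2 (0.97) for Pdgfc, and Vgll3 (0.97), Tusc5 (0.96) and Pamr1 (0.96) for Pdgfd. Among the members, Pdgfc and Pdgfra had an r of 0.94 and Pdgfd and Pdgfrb, the lowest pair, 0.62. These values describe 14 samples that share the split by tissue and the high sarcoma 1268_1270.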

How the data were processed

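The authors deposited 1 table of raw read counts per gene symbol for 16 libraries. Per the submitters' processing notes, STAR, DESeq, DESeq2 and the mm9 build were used, without versions; the strand setting and annotation were not given in the sources used here. Poly(A) RNA was sequenced, per the labels' protocols. All columns were mapped by name and 0 were left over. Counts of 1 mouse and tissue were summed, and 1268_1270, which may name 1 mouse or a pool, was treated as 1. Counts were filtered with filterByExpr, scaled by TMM and tested two-sided with edgeR 4.0.16 (robust quasi-likelihood, Benjamini-Hochberg adjustment, R 4.3.3). The SE is back-calculated from the F statistic and is approximate. DESeq2 1.42.0, limma-voom (limma 3.58.1), other scalings, filters and left-out samples were alternatives. The log2 CPM used a prior count of 2, and tumour libraries shown singly have their own scaling.

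Transcript lengths came from GENCODE M21 by symbol, a later annotation than mm9. The edgeR tests were also run on simulated counts with changes in randomly chosen genes. Those were not modelled on genes near 0 in marrow and carried by 1 sarcoma, so that run does not vouch for the calls here. The 6 members and all lists were chosen with earlier results of these data known. Genes named beside the members were the called pathway genes, the class III receptors and their ligands, up to 3 markers per list by smallest adjusted p, and the 3 genes most alike each member with a mean of at least 0.5 CPM. The uncalled pathway genes and Pdgfrl were named after their values were seen. Mice 1267 and 2721 pair the tissues because the samples come from the same animal. The deviations of their samples from the tissue means correlated at 0.29 and 0.21 across genes. The counts carry no molecular identifiers.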

Additional observations from a re-analysis of the deposited data

Results flagged for a closer look

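Dixon's criterion was applied to CPM in 32 groups, each of 4 sarcomas or 9 marrows. In 20 of them the lowest or highest sample was far from the others, 7 of these for PDGF genes. The criterion's rate of about 1 in 20 groups by chance, or 1.6 here, assumes independent groups of normally distributed values. Most marrow values of several genes were without a count, the groups share samples, and Plat, Grb10 and Ptprk were named because they were called. The number of flags therefore cannot be compared with chance. Sarcoma 1268_1270 was the far sample in 9 of the flagged groups. Its levels were 43.0 CPM of Pdgfc, 12.2 CPM of Pdgfd and 69.8 CPM of Pdgfra. In the same sarcoma Plat was at 40.5 CPM, Grb10 at 119.5 CPM and Ptprk at 52.2 CPM. The ligands of the other class III receptors were also high there, with 58.3 CPM of Kitl, 73.3 CPM of Csf1 and 28.3 CPM of Il34. Sarcoma 948 was far above the others for Flt3 at 35.2 CPM.

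Among the marrows, mouse 949 was far above the rest for Pdgfa (0.502 CPM) and Plat (0.853 CPM). Mouse 737 was so for Pdgfc (0.641 CPM) and Pdgfd (0.160 CPM), the latter from 2 counts against 0 in the other 8 marrows and below the 0.240 CPM that a count of 0 allows in that library. Mouse 3332 was so for Pdgfra (0.962 CPM) and Il34 (1.33 CPM). Mouse 1103 was so for Grb10 (2.13 CPM) and Ptprk (0.732 CPM), mouse 919 for Kit (154.5 CPM) and mouse 2721 for Kitl (6.29 CPM).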

How the results depend on the processing

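Pdgfa, Pdgfb, Pdgfc, Pdgfra and Pdgfrb had positive log2 fold changes of sarcoma over marrow under each alternative run, but their calls depended on the samples. The 662 higher and 8 lower genes, 3 PDGF genes and 3 pathway genes (class III relatives counted among them) became 170 to 762 higher, 0 to 16 lower, 0 to 3 and 0 to 4 when each sample was left out in turn, and the low counts of PDGF and pathway genes came without sarcoma 1268_1270. With mouse as a block, where only mice 1267 and 2721 inform the contrast, there were 107 higher and 23 lower genes and 0 PDGF genes called by edgeR. With the block in mice 1267 and 2721 alone there were 81 and 33, 0 PDGF genes and 1 pathway gene. Without marrows 737, 779 and 782 and tumour 1 of mouse 948, low in long transcripts, there were 300 higher and 3 lower genes and 0 pathway genes, and without sarcoma 1268_1270 as well 62 and 0, with 0 PDGF and 0 pathway genes. Leaving out marrow 1267 beside the 4, chosen after seeing the data, gave 165 and 1, with 1 PDGF gene (Pdgfc) and 0 pathway genes. Scaling to pan-leukocyte counts moved the median log2 fold change of all genes to 2.13 and called 8825 genes higher, 5 PDGF genes and 41 pathway genes. Relative to that median, Pdgfb was at 4.74 and Pdgfrb at 3.42. No filter gave 1355 higher and 13 lower genes. Lower genes numbered 83 with DESeq2, 20 with limma-voom (with 5 pathway genes), 17 with tumour libraries as samples and 20 with sarcoma 841 added. For sarcoma 841, DESeq2 called 65 genes, and leaving out 1 sarcoma gave 0 to 1 by edgeR. The log2 ratio of receptors to ligands turned to 0.18 in sarcoma 1267 with exon unions and to -0.085 in tumour 1 of mouse 2721 alone, and to 0.11 in tumour 2 of mouse 948 with exon unions, and that of Pdgfra to Pdgfrb to -0.045 in 1268_1270 with exon unions. The cause was not tested. DESeq2 gave no p for Pdgfc, and Pdgfa was not tested with a minimum of 1 CPM in 4 samples. Marrow levels of a few counts limit all folds.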

Other observations

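Pdgfrl, a gene named for its likeness to the PDGF receptors and no member of the ligand and receptor set, was chosen after its values were seen. Its level was 0.559 CPM in sarcoma 948, 2.36 CPM in 1267, 0.363 CPM in 1268_1270 and 2.63 CPM in 2721. Marrow ran from 0 CPM in 5 of 9 mice to 4.02 CPM in mouse 919, the marrow that also held the most Pdgfrb. Sarcoma 1268_1270 was the lowest of the 4 here, whereas it was the highest for all 6 PDGF genes. The log2 fold change of 1.29 ± 1.57 (SE) was not called (edgeR adjusted p = 0.886).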
